A study of Mus musculus with 6 samples.

Results

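The genes described here are 10 collagen chains that build or decorate collagen fibrils, out of 45706 genes in the deposited table. They were chosen by name, with no threshold on a measured value, although earlier results of these data were known: the fibrillar chains Col1a1, Col1a2, Col3a1, Col5a1, Col5a2, Col5a3 and Col11a1, and the fibril-associated chains Col12a1, Col14a1 and Col16a1. All 10 were found by their Ensembl identifiers, and all 10 passed the filter on low counts, as did 14635 genes in all. RNA sequencing was done on primary lung fibroblasts of wild-type mice. The cells were grown out of lungs digested with collagenase and then trypsin, and were purified by a method that the labels do not name. The control group held 3 samples, for which the labels name no vehicle, and the DKK1 group held 3 samples that received recombinant mouse DKK1 at 30 ng/ml over 24 hours. The comparison asks which fibroblast genes respond to DKK1 (Dickkopf-1), a secreted antagonist of Wnt signalling that acts on the co-receptors LRP5 and LRP6. The labels give neither the age nor the strain of the mice, and do not say whether samples of a group came from separate animals or cultures, so p-values measure only the spread between these samples.

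Fibrillar collagens are secreted as procollagens whose chains wind into a triple helix, lose their end peptides outside the cell and pack into banded fibrils. Collagen I, a trimer of Col1a1 and Col1a2 chains, is the main fibril of the lung interstitium, and collagen III, made of Col3a1 alone, forms finer fibrils with it. Collagens V and XI are minor fibrillar types that start fibril assembly and limit fibril width, and collagens XII, XIV and XVI have interrupted helices and attach to or near the surface of fibrils. Fibroblasts are the main source of these chains in lung, and their overproduction is a hallmark of lung fibrosis.

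Library totals ranged from 22565917 to 34727102 counts, so that a floor of 3 counts stands for 0.0864 to 0.133 CPM, where CPM is a gene's count scaled to a library total of 1000000. Members held from 326 counts (Col5a3, control replicate 1) to 200547 counts (Col1a1, DKK1 replicate 2) in a library. The fibroblast label was checked against 9 markers, of which Col1a1 and Col1a2 are chains described here. The other 7 were also detected, from Lum at 1.77 to 2.72 CPM to Fn1 at 4463 to 5182 CPM. Tcf21 stood at 26.3 to 32.7 CPM and Dcn at 33.0 to 65.4 CPM. Pdgfra, a growth factor receptor typical of lung fibroblasts, stood at 468 to 767 CPM. Of the smooth muscle and myofibroblast list, Acta2 stood at 4767 to 6423 CPM. Mitochondrial genes took 1.49% to 1.55% of counts in control and 1.63% to 1.70% in DKK1 libraries, without overlap; the part of this difference in the results was not tested. Replicate 3 of both groups stood apart. There the summed epithelial markers reached 128 CPM in both libraries, against 39.2 to 48.6 CPM in the other 4 libraries, and the endothelial markers 63.0 to 64.4 CPM against 21.7 to 29.3 CPM. The leukocyte markers reached 795 to 835 CPM, against 395 to 479.5 CPM, and the mesothelial markers 53.5 to 55.3 CPM, against 23.3 to 27.7 CPM. Most of the leukocyte sum was Lyz2, at 696 and 722 CPM in replicate 3 and 340 to 412 CPM in the other 4 libraries. Ptprc stood at 13.3 and 13.5 CPM in replicate 3, against 7.08 to 8.88 CPM. The T cell gene Cd3e was at 0 in every library, and the B cell gene Cd79a stayed at or under 3 counts in each.

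Levels of different genes are compared as CPM per kilobase of each gene's longest protein-coding transcript. On this scale Col1a1 was the most abundant member, at 1002 ± 64.8 CPM per kilobase in control cells (SD, n = 3), the 37th highest of all genes with a known length. Col1a2 followed at 553 ± 57.7 and Col5a2 at 488 ± 30.2 CPM per kilobase. The ranges of these latter 2 chains overlapped over the control libraries, although Col1a2 was the higher in 6 of 6 libraries. Col3a1 stood at 250.3 ± 13.8, Col5a1 at 132 ± 11.1 and Col12a1 at 101 ± 1.83 CPM per kilobase. A gap of 6.46-fold separated Col12a1 from Col11a1, at 15.6 ± 3.00 CPM per kilobase. Col11a1, Col14a1 (14.3 ± 2.74) and Col16a1 (13.1 ± 1.58) overlapped in their control ranges and did not keep one order: Col14a1 was above Col16a1 in only 2 of 6 libraries. Col5a3 was the lowest, at 2.74 ± 0.573 CPM per kilobase. Together the 10 chains took 1.61% ± 0.0984 (SD, n = 3) of all counts in control cells. Their share was 1.54% ± 0.0943 (SD, n = 3) after DKK1, and the groups overlapped.

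**Figure D1:**
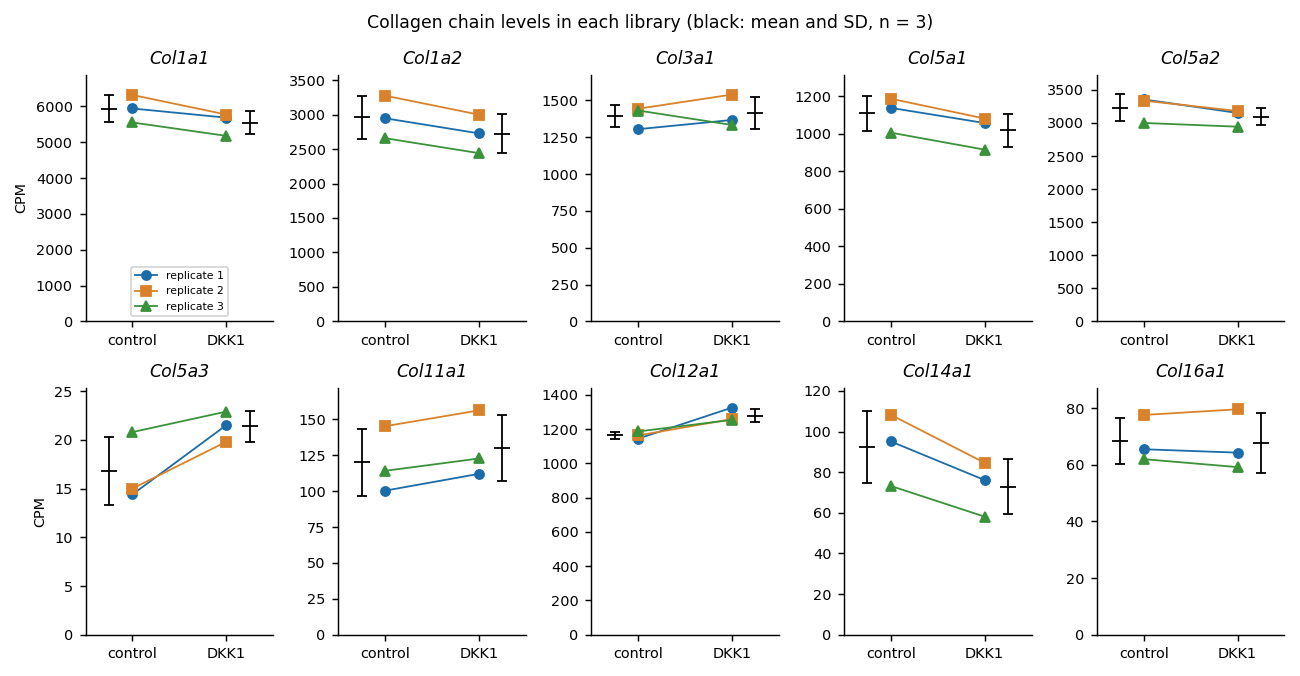
Level of each collagen chain in CPM (vertical axes, linear from 0) in the 3 control and 3 DKK1 libraries; lines join samples with the same replicate number, and black bars give the mean and SD of each group (n = 3). The Col12a1 points are the only ones whose groups do not overlap, while the lines of Col1a1, Col1a2, Col5a1, Col5a2 and Col14a1 all slope down and those of Col5a3, Col11a1 and Col12a1 all slope up.

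With samples treated as unpaired, 0 of the 10 chains passed the threshold of 0.05 on the adjusted p of edgeR's quasi-likelihood test, against 0.895% of all genes tested. A gene past this threshold is named as called. An unadjusted p under 0.05 was reached by 2 chains, Col5a3 and Col12a1, as by 10.6% of all genes; DESeq2 and limma-voom, which called 2.04% and 0.888% of all genes, also called 0 chains and gave an unadjusted p under 0.05 to 2. In a paired fit, which takes the replicate number as a block so that each DKK1 sample is compared with the control sample of its number, 8 of 10 chains were called, against 9.42% of all genes tested. The labels do not say that same-numbered samples belong together. Of the chains 5 were lower, against 4.46% of all genes, and 3 were higher, against 4.96%. In a comparison added after seeing the data, calls were commoner among abundant genes: with the block, 24.1% of genes averaging 100 CPM or more were called, and of the 7 chains at that level, 6 were called. Most of these 7 lay far above 100 CPM (Col1a1 at a mean of 5939.5 CPM in control), so the share is not matched to their abundance. Of the 10 chains, 8 moved the same way in all 3 pairs, as did 41.8% of all genes tested. They were the 8 called chains, and the paired fit favours genes whose pairs agree. The median log2 fold change of the 10 chains was -0.04 in both fits, beside 0.00 over all genes tested. With trends in GC content and transcript length taken out of each library, the chains' median was -0.003 unpaired and -0.004 paired. Over all genes tested the median was then -0.005 in both fits. The smooth muscle and myofibroblast markers shared with the lower chains the direction of the DKK1 difference, but not the order of replicates. Replicate 3 held the highest marker sum of each group (10673.6 CPM for control, 9521.7 CPM for DKK1). The 5 lower chains were lowest there. Among the single markers, Des was also lowest in replicate 3 of each group. All 6 markers were called lower with the block (median log2 fold change -0.24), and 1 without it (Myh11, adjusted p = 0.00387). Acta2, the actin of smooth muscle, was at -0.21 in the paired fit (adjusted p = 4.16e-06; 0.3 without the block). The part of these cells or this cell state in the chains' results was not tested. In bulk RNA, fewer cells of a type and less RNA per cell cannot be told apart.

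**Figure D2:**
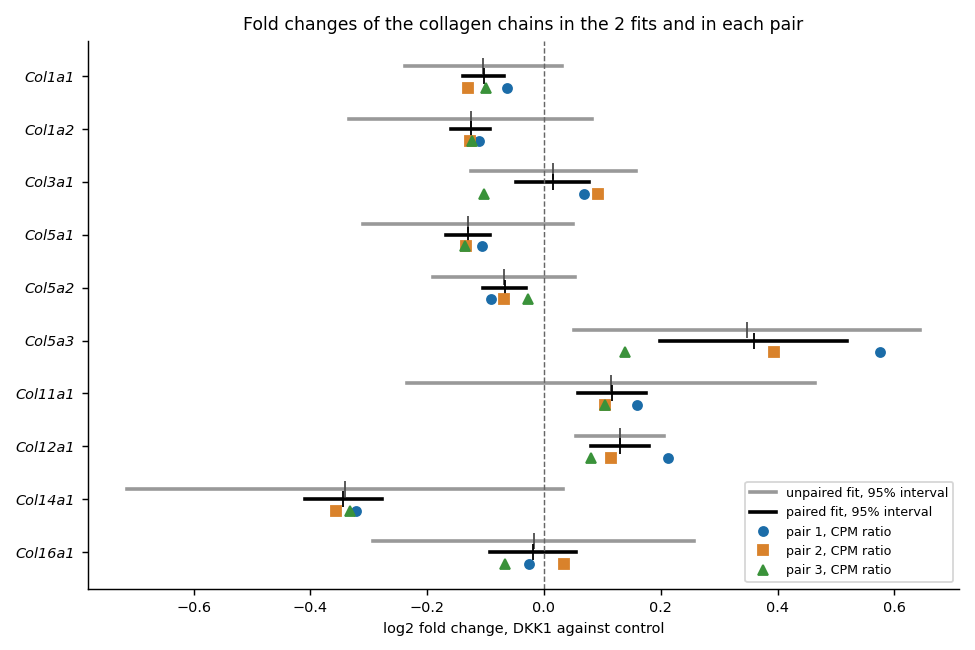
Log2 fold change of each chain, DKK1 against control (horizontal axis): grey bars, 95% interval of the unpaired edgeR fit; black bars, 95% interval of the paired edgeR fit; symbols, log2 ratio of CPM within each same-numbered pair. The paired intervals of 8 chains lie on 1 side of 0, and the pairs of Col3a1 and Col16a1 lie on both sides.

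The chains of collagen I were slightly lower in each DKK1 sample than in the same-numbered control, and were called only with the block. Col1a1 (ENSMUSG00000001506, chr11:94936224-94953042, plus strand, GRCm38) measured 5944, 6321 and 5553 CPM in control replicates 1 to 3 and 5688, 5775 and 5179.9 CPM in the DKK1 samples of the same numbers. Each DKK1 sample was below its own control, but the groups overlapped, since control replicate 3 lay below DKK1 replicates 1 and 2. Its log2 fold change was -0.10 ± 0.06 (SE, adjusted p = 0.617) without the block and -0.10 ± 0.02 (SE, adjusted p = 0.00107) with it, so that the paired level fell by 6.91%. The paired call was lost without replicate 2 (log2 fold change -0.09, adjusted p = 0.0832).

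Col1a2 (ENSMUSG00000029661, chr6:4504814-4541544, plus strand) measured 2946, 3273 and 2657 CPM in control and 2727, 2998 and 2439.9 CPM in DKK1 samples. The differences within pairs were nearly equal, with log2 ratios of -0.11, -0.13 and -0.12, while the groups overlapped. Its log2 fold change was -0.13 ± 0.09 (SE, adjusted p = 0.707) without the block and -0.13 ± 0.02 (SE, adjusted p = 0.000123) with it. The ratio of Col1a1 to Col1a2 per kilobase was 1.82, 1.74 and 1.89 in control replicates 1 to 3 and 1.88, 1.74 and 1.92 in DKK1 replicates 1 to 3. This ratio went up in 2 pairs and down in 1, by 0.02 on the log2 scale on average (exact permutation test over samples, two-sided, p = 0.8).

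Col3a1 (ENSMUSG00000026043, chr1:45311538-45349706, plus strand), the only chain of collagen III, was called in neither fit. It measured 1304, 1443 and 1431 CPM in control and 1367, 1539 and 1333 CPM in DKK1 samples, higher with DKK1 in pairs 1 and 2 and lower in pair 3. The paired log2 fold change was 0.02 with a 95% interval of -0.05 to 0.08 (adjusted p = 0.834), and without the block it was 0.02 (adjusted p = 0.969). Its exons overlap those of Gm47302, an annotated miRNA gene on the same strand to which a mean of 71.4 counts was assigned, against 37661 for Col3a1. The ratio of Col3a1 to Col1a1 per kilobase was 0.234, 0.243 and 0.275 in control and 0.256, 0.284 and 0.274 in DKK1 samples, so the groups overlapped (exact permutation test, two-sided, p = 0.3).

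The 3 chains of collagen V went in different directions. Col5a1 and Col5a2 make up the common form of this trimer, and Col5a3 is a scarcer chain that can replace one of them. Because Col5a1 was called lower and Col5a3 higher in the paired fit, together with Col11a1 of the closely related collagen XI, the 250 bases before the start of each are shown, read from RefSeq promoter windows (build GRCm38.p6) and written 5′ to 3′ on the gene's strand. Capitals mark CCAAT and GGGCGG on either strand (so also ATTGG and CCGCCC), letters that the CCAAT-binding factor NF-Y and SP-family factors are known to read.
Col5a1, chr2:27886175-27886424, plus strand: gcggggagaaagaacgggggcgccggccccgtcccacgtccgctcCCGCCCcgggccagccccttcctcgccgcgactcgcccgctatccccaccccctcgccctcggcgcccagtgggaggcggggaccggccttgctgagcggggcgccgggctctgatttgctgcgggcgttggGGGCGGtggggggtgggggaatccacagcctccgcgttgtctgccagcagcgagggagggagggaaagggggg
Col5a3, chr9:20815068-20815317, minus strand: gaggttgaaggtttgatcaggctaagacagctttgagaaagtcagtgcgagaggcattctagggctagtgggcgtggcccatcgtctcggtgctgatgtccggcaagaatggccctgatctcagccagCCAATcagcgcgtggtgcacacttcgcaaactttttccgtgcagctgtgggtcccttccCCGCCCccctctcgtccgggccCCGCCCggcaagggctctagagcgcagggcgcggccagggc
Col11a1, chr3:114030290-114030539, plus strand: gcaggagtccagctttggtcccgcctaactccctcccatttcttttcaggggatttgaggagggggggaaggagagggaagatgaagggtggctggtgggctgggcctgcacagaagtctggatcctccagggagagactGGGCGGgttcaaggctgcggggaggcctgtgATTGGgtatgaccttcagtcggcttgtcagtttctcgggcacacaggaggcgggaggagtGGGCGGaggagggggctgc
Windows were found for 6 of the 10 chains (Col1a2, Col3a1, Col5a1, Col5a3, Col11a1 and Col16a1). CCAAT was present in 4 of these, all but Col3a1 and Col5a1, and in 33.8% of the 32851 windows of the same length. GGGCGG was present in 5, all but Col3a1, and in 32.7% of all windows; the marked matches do not overlap one another. TATAAA, searched on both strands as well, was present only in the Col3a1 window among the 6, and in 12.4% of all windows. Of the 5 chains called lower, only Col1a2 and Col5a1 had a window, and the Col1a2 window (chr6:4505368-4505617) lies inside the annotated gene and overlaps one of its exons.

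Col5a1 (ENSMUSG00000026837, chr2:27886425-28039514, plus strand) measured 1138, 1187 and 1006 CPM in control and 1057, 1081 and 916 CPM in DKK1 samples. It was lower with DKK1 in each pair, and the groups overlapped. Its log2 fold change was -0.13 ± 0.08 (SE, adjusted p = 0.644) without the block and -0.13 ± 0.02 (SE, adjusted p = 0.000223) with it. Its exons overlap those of 2810430I11Rik and Gm13372 on the opposite strand, which held means of 67.5 and 16.5 counts against 28499 for Col5a1; the strandedness of the counting is not stated, so reads of these genes cannot be told apart with certainty.

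Col5a2 (ENSMUSG00000026042, chr1:45374321-45503282, minus strand), which lies next to Col3a1, measured 3355, 3337 and 2999.9 CPM in control and 3151, 3181 and 2944 CPM in DKK1 samples. The paired difference was the smallest of the called chains, at -0.07 ± 0.02 on the log2 scale (SE; adjusted p = 0.0233, and 0.726 without the block). Its call was lost when pair 2 was left out (adjusted p = 0.263). With trends in GC content and transcript length also taken out of each library, the paired calls of Col5a1 (log2 fold change -0.07, adjusted p = 0.0509) and Col5a2 (-0.04, adjusted p = 0.355) were lost.

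Col5a3 (ENSMUSG00000004098, chr9:20770050-20815067, minus strand) measured 14.4, 15.0 and 20.8 CPM in control and 21.5, 19.8 and 22.9 CPM in DKK1 samples. Control replicate 3 lay above DKK1 replicate 2, so the groups overlapped, and the log2 ratio shrank from 0.58 in pair 1 and 0.39 in pair 2 to 0.14 in pair 3. Its log2 fold change was 0.35 ± 0.13 (SE, adjusted p = 0.365) without the block and 0.36 ± 0.07 (SE, adjusted p = 0.00718) with it, the largest rise among the chains. Without control replicate 3 the unpaired fit called it (log2 fold change 0.52, adjusted p = 0.042; 0.714% of all genes called). The paired call was lost without replicate 2 (adjusted p = 0.104) and in DESeq2 with the block (adjusted p = 0.107), which called 3.94% of all genes. The markers of epithelial, endothelial, leukocyte and mesothelial cells were higher in replicate 3 of both groups, as was Col5a3; their part in the result was not tested.

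Col11a1 (ENSMUSG00000027966, chr3:114030540-114220718, plus strand), a chain of collagen XI that can also join collagen V trimers, measured 100.4, 145 and 114 CPM in control and 112, 156 and 123 CPM in DKK1 samples. Replicate 2 was the highest in both groups, and the groups overlapped almost fully. The log2 fold change was 0.11 ± 0.15 (SE, adjusted p = 0.869) without the block and 0.12 ± 0.03 (SE, adjusted p = 0.014) with it. The paired call was lost without replicate 1 (adjusted p = 0.0518), without replicate 2 (adjusted p = 0.109) and in DESeq2 with the block (adjusted p = 0.293).

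The fibril-associated chains also differed from one another. Col12a1 (ENSMUSG00000032332, chr9:79598991-79718831, minus strand), a long chain that links fibrils with their surroundings, measured 1144, 1162 and 1186 CPM in control and 1325, 1258 and 1253 CPM in DKK1 samples. It was the only chain whose groups did not overlap, as was the case for 16.5% of all genes tested. Its log2 fold change was 0.13 ± 0.03 (SE, adjusted p = 0.153) without the block and 0.13 ± 0.02 (SE, adjusted p = 0.0021) with it, and it rose in the paired fit by 9.43%. Once trends in GC content and length were removed, the unpaired fit called it as well (log2 fold change 0.19, adjusted p = 0.0357), where 0.868% of all genes were called.

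Col14a1 (ENSMUSG00000022371, chr15:55307750-55520803, plus strand), a chain that binds fibril surfaces and the proteoglycan decorin, had the largest fall. It measured 95.1, 108 and 73.2 CPM in control and 76.1, 84.6 and 58.1 CPM in DKK1 samples. The level differed widely by replicate number, yet the log2 ratio was -0.32, -0.36 and -0.33 in pairs 1 to 3. Its log2 fold change was -0.34 ± 0.16 (SE, adjusted p = 0.53) without the block and -0.34 ± 0.03 (SE, adjusted p = 7.31e-06) with it, so that the paired level fell by 21.2%. The paired value was -0.33 to -0.35 when any 1 pair was left out, and it was called each time. With so few libraries these calls rest largely on the spread shared with other genes. The unadjusted p of the paired edgeR test was smaller without replicate 1 (1.63e-16) than with all pairs (4.8e-08). The calls therefore do not measure how stable the result is. The unpaired value depended more on single libraries, at -0.487 without control replicate 3 and -0.203 without DKK1 replicate 3, and was not called in any of these fits.

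Col16a1 (ENSMUSG00000040690, chr4:130047840-130099283, plus strand) measured 65.5, 77.6 and 62.0 CPM in control and 64.3, 79.6 and 59.2 CPM in DKK1 samples. It was higher with DKK1 in 1 pair and lower in 2, and was called in neither fit. The paired log2 fold change was -0.02 with a 95% interval of -0.09 to 0.05 (adjusted p = 0.816).

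Ratios between chains in the same library do not depend on how libraries are scaled. They do keep any trend in GC content or transcript length that differs between libraries, which was not taken out of them. For 6 ratios an exact permutation test over samples was run, where 3 samples against 3 cannot give a p under 0.1; the adjusted p was 0.45 or more for each (Benjamini-Hochberg over the 6). Col12a1 to Col14a1 per kilobase was 6.75, 6.02 and 9.09 in control and 9.77, 8.34 and 12.1 in DKK1 samples. It was higher in 3 of 3 pairs, by 0.47 on the log2 scale (SD over pairs 0.06; unpaired exact permutation p = 0.2; exact sign-flip permutation over pairs p = 0.25, the smallest possible). Col11a1 to Col5a1 was higher in 3 of 3 pairs by 0.25 on the log2 scale, with pair differences of 0.27, 0.24 and 0.24. Col5a3 to Col5a1 was higher in 3 of 3 pairs by 0.50 on average, but by 0.68 in pair 1 and 0.28 in pair 3. Col5a1 to Col5a2 was lower in 3 of 3 pairs by a mean of -0.06 on the log2 scale. None of the 6 ratios separated the groups without pairing.

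**Figure D3:**
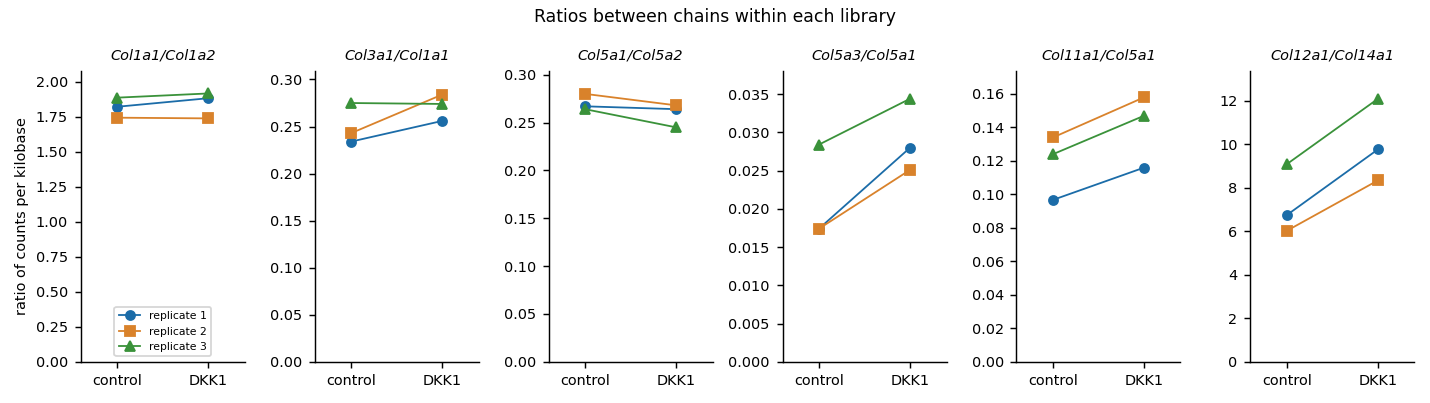
Ratio of counts per kilobase between 2 chains (vertical axes, linear from 0) in each control and DKK1 library, with lines joining same-numbered samples. Col5a3/Col5a1, Col11a1/Col5a1 and Col12a1/Col14a1 slope up in all 3 pairs, and Col1a1/Col1a2 stays between 1.74 and 1.92.

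For 8 of the 10 chains, the range over replicate numbers (mean log2 level of each pair) was larger than the mean difference between DKK1 and control; the exceptions were Col5a3 and Col12a1. A range over 3 numbers and a mean difference are unlike measures, and the share over all genes was not computed. Col14a1 spanned 0.57 on the log2 scale over the 3 numbers and Col11a1 0.51. Col12a1 spanned 0.02, the least of the chains. When 1 library was left out of the unpaired fit, the log2 fold change ranged from -0.157 to -0.054 for Col1a1, from -0.205 to -0.044 for Col1a2, from -0.203 to -0.057 for Col5a1 and from -0.126 to -0.032 for Col5a2. Replicate 3 was the lowest pair for Col1a1, Col1a2, Col5a1, Col5a2, Col14a1 and Col16a1, and the highest for Col5a3. Replicate 3 was also the pair with the most epithelial, endothelial, leukocyte and mesothelial marker RNA; the part of those cells in the chain levels was not tested. When replicate 3 was left out of the paired fit the same 8 chains were called (7.12% of all genes), and without replicate 1 all of these but Col11a1 (8.89% of all genes). Without replicate 2, 4 chains were called, Col1a2, Col5a1, Col12a1 and Col14a1 (4.2% of all genes). Paired fits without 1 pair hold few libraries, so their calls rest largely on the spread shared with other genes. In limma-voom with the block the same 8 were called (9.5% of all genes), and in DESeq2 with the block 6 were, without Col5a3 and Col11a1.

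**Figure D4:**
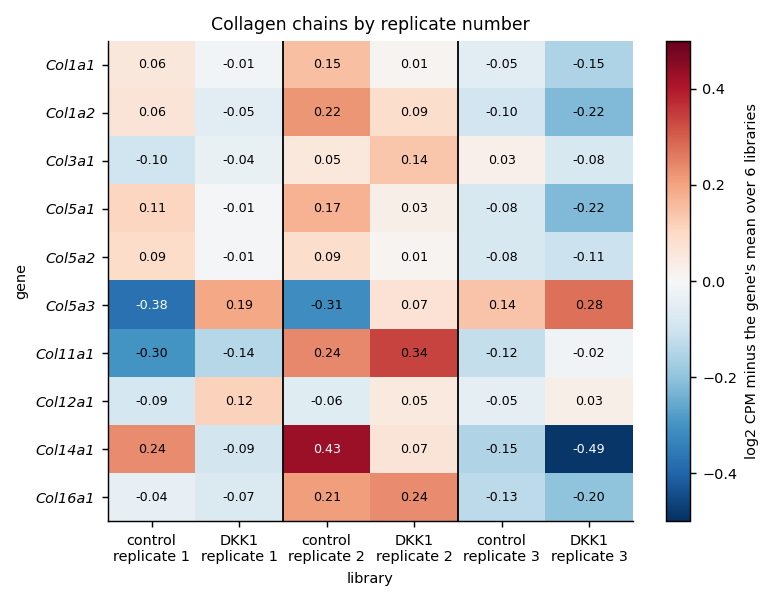
Log2 CPM of each chain (rows) in each library (columns, ordered by replicate number), minus the gene's mean over the 6 libraries; red is above and blue below that mean. Within each pair Col14a1 is lower and Col5a3 higher in the DKK1 library, and the Col14a1 values of replicate 3 are the lowest of its pairs.

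The mean profile of the 10 chains over the 6 libraries was compared with 9213 other genes of at least 10 CPM. The profile was highest in replicate 2 (0.12 in control and 0.10 in DKK1 on the centred log2 scale) and lowest in DKK1 replicate 3 (-0.12). The 5 genes with the smallest root mean square difference from it were Nr2c2 and Cenpn (0.019 log2 each), Pam (0.022), Aggf1 and Srebf2 (0.023 each). This is a ranking over 6 libraries and carries no test.

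Genes that serve the same fibrils were described from 10 lists of named genes. Over all genes tested, 9.42% were called with the block (4.96% higher and 4.46% lower) and 0.895% without it. Among genes averaging 100 CPM or more, 24.1% were called with the block. No list was tested as a set. Of 4 other fibrillar chains, 1 was called with the block and 0 without: Col2a1, the cartilage chain, fell from 21.2 ± 5.82 to 14.8 ± 6.70 CPM (SD, n = 3 each; log2 fold change -0.53, adjusted p = 0.00222 with the block and 0.679 without). Of 7 other fibril-associated chains, 2 were tested, of which 0 were called in either edgeR fit, with 1 (Col19a1, not in the naming rule and named after its value was seen) at an unadjusted p under 0.05. Of 24 further collagen chains 19 were tested, and 9 were called with the block, 7 lower and 2 higher; 1 was called without it. That chain was Col6a3 of the beaded filament collagen VI (log2 fold change -0.41, adjusted p = 0.00154 without and 2.38e-08 with the block). The basement membrane chains Col4a1, Col4a2 and Col4a5 were lower in the paired fit, at -0.12, -0.14 and -0.24 on the log2 scale (adjusted p = 0.000358, 0.000148 and 0.000105).

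Genes that fold, trim and crosslink the chains were called in both directions. Of 22 tested folding and export genes, 3 were called higher and 4 lower with the block and 0 without. P4hb, a subunit of the prolyl hydroxylase that stabilises the helix, had a paired log2 fold change of 0.08 (adjusted p = 0.00583). Serpinh1, the collagen chaperone HSP47, had -0.06 (adjusted p = 0.0333), and Sec23a, a coat protein of the vesicles that carry procollagen, -0.11 (adjusted p = 0.0108). Tmem38b, an ion channel of the endoplasmic reticulum, had 0.22 (adjusted p = 0.0146). Of 7 tested procollagen processing genes, 2 were called higher and 1 lower with the block. The N-propeptidase gene Adamts3 went from 1.22 ± 0.265 to 2.28 ± 0.296 CPM (SD, n = 3 each; adjusted p = 0.014 with the block and 0.151 without). The enhancers of C-propeptide removal split, with Pcolce at -0.09 (adjusted p = 0.0165) and Pcolce2 at 0.25 (adjusted p = 0.0128) in the paired fit. Of 6 crosslinking genes, 4 were called lower with the block, against 4.46% of all genes, and 0 higher; 0 were called without it (adjusted p = 0.15 to 0.79 for these 4). They were Loxl3 (log2 fold change -0.19), Tgm2 (-0.14), Lox (-0.09) and Loxl1 (-0.09), with paired adjusted p-values of 0.000316 to 0.0055. These 4 genes averaged over 100 CPM, a level at which 24.1% of genes were called in either direction with the block.

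Among fibril organisers, 3 of 17 tested genes were called higher and 4 lower with the block. Dcn, which encodes decorin, a proteoglycan that coats fibrils, went from 40.6 ± 7.92 to 61.8 ± 5.35 CPM (SD, n = 3 each; log2 fold change 0.62, adjusted p = 9.73e-06 with the block and 0.0791 without). Fmod, which encodes fibromodulin of the same family, fell by 0.36 on the log2 scale in both fits (adjusted p = 0.0344 without and 0.00101 with the block). The collagen-binding glycoprotein Sparc and the fibronectin gene Fn1, on which collagen assembles, were lower in the paired fit, at -0.10 and -0.13 on the log2 scale (adjusted p = 0.00109 and 0.00398). Of 10 tested collagen receptors, Itga1 was called lower in both fits (log2 fold change -0.28, adjusted p = 0.0183 without and 0.000129 with the block) and Itga2 higher with the block only (0.40, adjusted p = 3.33e-05; 0.449 without). Both encode collagen-binding integrin subunits.

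Of 10 genes that break down fibrillar collagen, 3 were called higher and 1 lower with the block and 0 without. The collagenases Mmp8 and Mmp13 rose in the paired fit, Mmp8 by 0.87 on the log2 scale (adjusted p = 2.62e-08; 0.0869 without the block) and Mmp13 by 0.66 (adjusted p = 2.51e-07; 0.385 without). The gelatinase gene Mmp9 had 1.33 (adjusted p = 4.93e-06; 0.481 without), and Mmp14, a collagenase held in the cell membrane, -0.11 (adjusted p = 0.00195; 0.191 without). Mmp8 and Mmp9 are also made by myeloid cells. Of the leukocyte list 3 of 6 tested genes were called with the block, 2 higher and 1 lower. Itgam (log2 fold change 1.07, adjusted p = 7.23e-08) and Adgre1 (0.54, adjusted p = 0.00179) were higher, and Csf1r (-0.25, adjusted p = 0.0364) was lower. None of the 3 was called without the block, and the part of such cells was not tested. Of 22 genes that regulate collagen transcription or the TGF-beta pathway, 5 were called higher and 2 lower with the block. Tgfb3, a TGF-beta ligand, fell by 0.39 on the log2 scale in both fits (adjusted p = 0.0285 without and 5.96e-07 with the block). The signal transducer Smad3 and the transcription factors Prrx1 and Cebpb rose in the paired fit, by 0.20, 0.20 and 0.40 on the log2 scale (adjusted p = 0.000182, 2.87e-05 and 0.000297), and none of these 3 was called without the block.

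**Figure D5:**
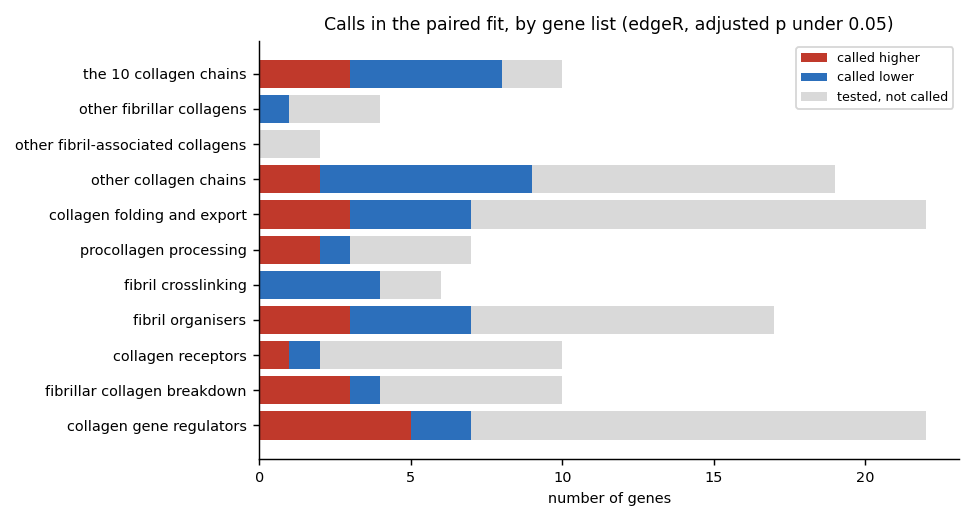
Number of tested genes (horizontal axis) in each list that were called higher (red), called lower (blue) or not called (grey) by edgeR with the replicate block. The 10 chains hold 3 higher and 5 lower calls, and the 6 crosslinking genes 4 lower and 0 higher.

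GC contents differed among the chains called in each direction. The chains called lower with the block had transcript GC contents of 58.9% (Col1a1), 58.0% (Col5a1), 55.7% (Col1a2), 49.7% (Col14a1) and 49.6% (Col5a2), and those called higher 61.6% (Col5a3), 48.3% (Col12a1) and 48.0% (Col11a1). With the trend against GC content and length removed in the paired fit, 6 chains were called, 3 lower (Col1a1, Col1a2 and Col14a1) and 3 higher (Col5a3, Col11a1 and Col12a1), against 8.66% of all genes tested. The log2 fold changes of Col1a1 and Col1a2 then went from -0.10 to -0.06 (adjusted p = 0.0289) and from -0.13 to -0.09 (adjusted p = 0.00187). The value for Col14a1 was -0.31 (adjusted p = 5.53e-06). Removing the trend shifted the paired log2 fold change of every chain upward, so falls shrank and rises grew. Col5a1 went from -0.131 to -0.068 and Col5a2 from -0.068 to -0.035. Col5a3 went from 0.359 to 0.412, Col11a1 from 0.116 to 0.153 and Col12a1 from 0.13 to 0.19.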

How the data were processed

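RNA of 3 control and 3 DKK1-treated fibroblast samples was sequenced. Per the submitters' processing notes, STAR, RSEM and edgeR 4.2.1 and the builds GRCm38 and mm10 were used, without their roles; the annotation release and strandedness are not given in the sources used here. The deposited values are RSEM expected counts per gene, unscaled, of which 9.62% to 10.6% were not whole in a library. After rounding, they were fitted by edgeR 4.0.16 in R 4.3.3 (filterByExpr with a minimum count of 10, TMM, glmQLFit and glmQLFTest, two-sided, group as the only term), with Benjamini-Hochberg adjustment over all 14635 genes tested and a threshold of 0.05. Standard errors are approximate, taken from the fold change and the F statistic. CPM uses the whole library total.

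The labels number the samples of each group but do not state that same-numbered samples are paired. Across genes, the 2 samples of a number deviated together from the means of their groups (r = 0.27, 0.23 and 0.41). Samples of unlike numbers gave r of -0.28 to 0.08, and centring 3 samples on their group mean itself pushes such values down. The pairing is thus inferred from these same data, and the fit with the replicate block is given beside each result whose call it changes. What a number marks is not stated in the labels.

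Symbols (98.8% of identifiers), lengths, GC contents and gene coordinates came from GENCODE M21 (GRCm38), and promoter windows from RefSeq. All 10 chains are named. From each list, genes called without the block and up to 4 with the smallest adjusted p with it could be named; Col19a1 was named outside this rule. The chains, lists and tests were chosen with earlier results of these data known. The GC and length trend was a loess surface (span 0.3) per library, entered as an offset. Counting error aside, reads amplified by PCR are not independent molecules. Alternatives also included DESeq2 1.42.0 and limma-voom (limma 3.58.1).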

Additional observations from a re-analysis of the deposited data

How the results depend on the processing

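The number of chains called was 0 in the unpaired fit and also with DESeq2 size factors, library totals, no low-count filter, at least 10 counts in every sample, DESeq2 and limma-voom; removing the GC and length trend gave 1, and the number ranged from 0 to 1 when 1 sample was left out. With the replicate block it was 8, and 6 with the GC and length trend removed as well. Alternatives chosen after seeing the data gave 6 in DESeq2 with the block, 8 in limma-voom with the block, and 4 to 8 when 1 pair was left out of the blocked edgeR fit (7 without replicate 1, 4 without replicate 2 and 8 without replicate 3). Over all genes, 131 were called without the block, 329 with no low-count filter, 289 in DESeq2 and 36 to 139 when 1 sample was left out. With the replicate block 1379 were called, 1267 with the trend removed as well, 558 in DESeq2, 1391 in limma-voom, and 1312, 612 and 1059 without replicates 1, 2 and 3. The cause of these gaps was not tested. Leaving out samples leaves fewer for the fit, but the number did not always fall, at 139 without DKK1 replicate 3 against 131 with all samples.

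Signs changed only for chains called in no fit, and once for Col11a1. Col3a1, at 0.016 with all samples, ranged from -0.054 to 0.059 over the 6 fits without 1 sample, and was -0.008 and -0.021 with the block without replicates 1 and 2. Col16a1 was 0.03 with the GC and length trend removed, 0.027 with that and the block, 0.002 with the block without replicate 3, and -0.158 to 0.088 without 1 sample. Col11a1 was -0.044 without DKK1 replicate 2, the low end of a range up to 0.281. The log2 difference in the Col1a1 to Col1a2 ratio was 0.022 and ranged from -0.008 to 0.065 without 1 sample; the block left every ratio's mean difference as it was. The chains' share of counts differed by -0.073 percentage points, and by -0.123 to -0.0213 without 1 sample. The depth limits Col5a3 most, at 326 to 686 counts per library.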
